A study of Mus musculus with 6 samples.

Results

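A set of 10 genes of the mucus system were examined in the mouse anterior prostate (AP), where epithelial Notch1 signaling had been switched on. They were the secreted mucin Muc5b, the membrane mucins Muc1, Muc4, Muc16 and Muc20, the mucus binding proteins Fcgbp and 9530053A07Rik, the trefoil peptide Tff3, the endoplasmic reticulum protein Agr2 and the transcription factor Spdef. They were taken by symbol, 10 of 54532 named rows, and were picked with their OEx and Ctrl values known, so that their own differences are described here without a test. Whole AP of male mice at 20 weeks of age was sequenced after prostatic secretions had been removed. Each library is counted here as 1 mouse, which the labels do not state. The 3 OEx mice carried Pbsn-Cre and 1 Rosa26 allele that releases the Notch1 intracellular domain (N1ICD) once Cre has acted. The 3 Ctrl mice, named wild type in the sample labels, carried the same Rosa26 N1ICD/+ allele without Cre in the study's description. Pbsn-Cre is driven by the promoter of probasin, itself a secretory product of the prostate epithelium, so N1ICD is confined to epithelial cells in which that promoter has been active. Levels are FPKM as deposited by the authors, sequenced fragments set against gene length and a scaling factor for each library.

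Mucus is built from long, O-glycosylated mucins. Secreted mucins polymerise into a gel, whereas membrane mucins stay on the apical surface of the epithelium. Gel mucins are folded in the endoplasmic reticulum with the help of Agr2, a disulfide isomerase, and are packed into granules with trefoil peptides and with proteins of the Fcgbp type, which consist of repeated von Willebrand factor D domains. Spdef is an ETS family factor that drives goblet cell maturation in airway and gut and is also made by prostate luminal cells. In the gut, Notch signaling restrains the goblet cell fate.

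Sequence upstream of the transcription start, from RefSeq on GRCm38.p6, was available here for 8 of the 10 genes, all but Muc5b and Tff3. Fcgbp and 9530053A07Rik lie next to each other on the plus strand of chromosome 7, with 8603 bases between them. The sequences of the pair are shown because they were the most alike of all. The last 250 bases before each start, at chr7:28070986-28071235 and chr7:28129216-28129465, were identical at 183 of 257 aligned positions (71.2%), whereas the other 27 pairs among the 8 genes ranged from 44.2% to 53.3%. Capitals mark the 2 stretches of at least 10 aligned bases, 24 bases in all, that the pair share without a mismatch. The third sequence, at chr17:27728952-27729201 on the minus strand and printed 5′ to 3′, belongs to Spdef. It is shown because it was the only one of the 8 with the core of the RBPJ site, the DNA binding partner of N1ICD, and its capitals mark that core and a core of the androgen response element.
Fcgbp: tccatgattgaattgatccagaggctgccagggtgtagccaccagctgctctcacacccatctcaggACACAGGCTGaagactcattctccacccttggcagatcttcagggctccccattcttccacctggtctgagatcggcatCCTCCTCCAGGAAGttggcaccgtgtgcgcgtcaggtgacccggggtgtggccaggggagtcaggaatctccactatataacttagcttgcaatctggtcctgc
9530053A07Rik: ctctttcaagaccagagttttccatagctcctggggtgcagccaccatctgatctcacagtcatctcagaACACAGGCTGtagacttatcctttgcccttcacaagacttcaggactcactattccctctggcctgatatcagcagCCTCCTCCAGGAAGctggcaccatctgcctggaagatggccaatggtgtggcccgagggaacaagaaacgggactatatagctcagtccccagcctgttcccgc
Spdef: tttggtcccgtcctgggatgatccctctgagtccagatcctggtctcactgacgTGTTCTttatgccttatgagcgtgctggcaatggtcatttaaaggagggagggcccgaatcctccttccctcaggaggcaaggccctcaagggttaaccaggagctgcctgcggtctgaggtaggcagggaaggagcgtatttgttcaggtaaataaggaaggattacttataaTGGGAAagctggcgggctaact

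Both strands were searched for short motifs, and a match of this kind describes letters only. The RBPJ core TGGGAA, found in 21.6% of all 32851 RefSeq promoters of this length, stood in Spdef from 22 to 17 bases before the start and in none of the other 7 genes. The androgen response element core AGAACA, found in 16.1% of promoters, stood in 9530053A07Rik from 183 to 178 bases before the start, in Spdef from 196 to 191 bases before it (on the opposite strand, hence TGTTCT) and in Muc16. The TATA box TATAAA (12.4% of promoters) was present in Muc1 and Muc4, the forkhead core TGTTTA (12.0%) in Muc20, and the Spdef core CCGGAT (4.94%) in none of the 8. No motif of the search overlapped another within these promoters.

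The depth recovered from the FPKM steps ran from 14762182 to 18650962 reads per mouse, and a count of 0 allows a level of up to 3 reads, a limit that covers counting error only. Notch1, which takes reads of the transgene as well as of the gene, was at 41.9 to 78.9 FPKM in OEx and 3.34 to 5.55 FPKM in Ctrl mice. Summed luminal keratin and adhesion markers (Krt8, Krt18, Epcam, Cdh1) were at 1004 to 1322 FPKM in OEx and 1498 to 1740 FPKM in Ctrl mice, and took 0.30% to 0.35% and 0.223% to 0.235% of recovered reads, the opposite order. Within the set, Krt8 and Krt18 were lower and Epcam and Cdh1 higher in OEx mice, each without overlap. Replicate 3 of either group stood apart from their groups. In OEx replicate 3 the summed stroma markers were at 258 FPKM (394 and 397 in the other OEx mice). Of these markers Myh11 was higher there, at 52.0 FPKM (33.4 and 34.3). Acta2 was slightly lower, at 186 FPKM (211 and 209), and Col1a1, Col1a2, Dcn and Pdgfra were clearly lower. In the same mouse the summed immune markers were at 4.52 FPKM (20.5 and 20.1) and the AP secretory markers at 5358 FPKM (2520 and 2257). In Ctrl replicate 3, 1.31% of reads came from a set of 8 seminal vesicle genes, against at most 3.25e-04% elsewhere. Nearly all of these reads lay on Svs2 (115747), Svs5 (104780), Pate4 (18488) and Svs4 (5321). Svs1, Svs3a, Svs3b and Svs6 had 0 to 21 reads there. Values are therefore given for each mouse, and fold changes also without both mice numbered 3. The mice then left, replicates 1 and 2 of a group, differed by only 2.48 (OEx) and 2.22 (Ctrl) times counting noise in variance, against 19.0 to 24.0 times for the other pairs within a group, and whether they are separate animals is not stated in the labels, so the small standard errors without replicate 3 may describe technical spread. Fold changes are on the log2(FPKM + 1) scale from a limma fit over the 12553 rows whose mean reached 1 FPKM, which understates the change of low genes.

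The gel-forming mucin of the set was essentially not detected. Muc5b (chromosome 7, 141839070 to 141873084), a main gel mucin of airways, had 1 read in OEx replicate 1 and 0 reads in the other 5 mice. Depth allowed up to 0.00877 to 0.0160 FPKM for a count of 0 in a mouse. Both groups were at or under that limit, so no fold change is given. Among other secreted mucins, Muc2 was at no more than 0.0650 FPKM in any mouse and Muc5ac was listed at 0 in every mouse. Muc19, also gel-forming, was low but present, at 0.207 to 0.335 FPKM in OEx and 0.0439 to 0.0679 FPKM in Ctrl mice, and was not tested.

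Membrane mucins were low and did not form a single pattern. Muc1 (chromosome 3, 89229057 to 89233381), a widely expressed epithelial mucin whose cytoplasmic tail can signal, was at 0.556, 0.466 and 0.0708 FPKM in OEx and 0.136, 0.165 and 0.421 FPKM in Ctrl mice. OEx replicates 1 and 2 were the 2 highest and OEx replicate 3 was the lowest of all, so the groups overlapped. The values rest on 3 to 26 reads per mouse, and the group means were 0.364 ± 0.258 and 0.241 ± 0.157 FPKM (SD, n = 3 each). Muc16 (chromosome 9, 18495455 to 18674530), a very long mucin that binds mesothelin, had counts of 2, 0 and 1 in OEx and no read in Ctrl mice, which is at the detection limit in both groups.

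Muc4 and Muc20 were on the Ctrl side. Muc4 (chromosome 16, 32735886 to 32782391), which carries EGF-like domains and associates with Erbb2, was listed at 0 in all 3 OEx mice and at 0.0748, 0.0131 and 0.0728 FPKM in Ctrl mice. There were 26 Ctrl reads against 0, and 3 reads over the group were taken as the OEx floor. The Ctrl level was 13.0-fold above that floor with the deposited scaling and 7.54-fold per total reads. Error of the Ctrl count and spread between mice are left out, so these folds are not lower bounds. Muc20 (chromosome 16, 32777419 to 32797435), a small mucin known to bind the receptor Met, was listed at 0 in OEx replicates 1 and 2 and was at 0.165 FPKM in replicate 3. Ctrl mice were at 3.47, 3.97 and 0.784 FPKM, from 175, 207 and 48 reads, so that Ctrl replicate 3 was well below the other Ctrl mice, and the groups still did not overlap. The log2 fold change was -1.70 (SE 0.387), -2.24 without both mice numbered 3 and -4.08 with a pseudocount of 0.1. The genes of Muc4 and Muc20 overlap on opposite strands, with 627 exon bases in common, and the strand used in counting is not stated, so part of the reads cannot be assigned.

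Of all members, the mucus binding protein 9530053A07Rik held the largest difference in level. 9530053A07Rik (chromosome 7, 28129466 to 28164811), a large uncharacterised gene of the Fcgbp type, was at 25539, 25480 and 14771 FPKM in Ctrl mice, where it ranked 1, 2 and 3 among all rows. In OEx mice it was at 6.10, 6.73 and 623 FPKM, ranks 6203, 5792 and 40. All Ctrl mice lay above all OEx mice, yet the OEx mice themselves differed by a larger factor than for Fcgbp, Agr2 or Spdef, with replicate 3 97.2-fold above the mean of the other OEx mice. The Ctrl mean was 3419-fold above the mean of OEx replicates 1 and 2 and 35.2-fold above OEx replicate 3.

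In Ctrl mice 9530053A07Rik alone took 21.96% of recovered reads in replicate 1 (95% Clopper-Pearson interval 21.94 to 21.98), 22.02% in replicate 2 (22.00 to 22.04) and 14.25% in replicate 3 (14.24 to 14.27). In OEx mice its share was 0.00967% (0.00918 to 0.0102), 0.0107% (0.0102 to 0.0112) and 0.903% (0.898 to 0.907). No other gene had more reads in any Ctrl mouse. Its log2 fold change was -9.35 (SE 1.68), and -11.75 (SE 0.0535) without both mice numbered 3. In bulk AP, fewer cells that make a transcript and less transcript per cell cannot be told apart, for this gene or any other here.

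**Figure D1:**
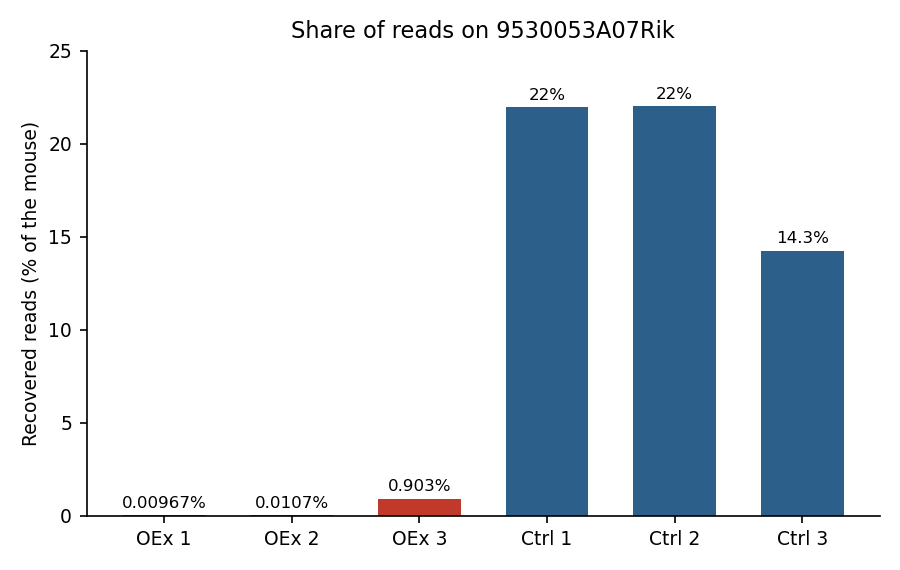
Bars show the share of all recovered reads that fell on 9530053A07Rik (y axis, percent, from 0) in each of the 6 mice. The 3 Ctrl mice stand at 21.96%, 22.02% and 14.25%, and OEx replicate 3 at 0.903% is the only OEx mouse with a visible bar.

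Fcgbp (chromosome 7, 28071236 to 28120862), the IgG Fc binding protein of mucus, was far less abundant than its neighbour in Ctrl mice, at 59.0, 57.5 and 56.4 FPKM. OEx mice were at 0.568, 0.421 and 4.03 FPKM. The Ctrl mice were tightly grouped, and OEx replicate 3 was the highest OEx mouse, as for 9530053A07Rik, at 8.15 times the mean of the other OEx mice. The log2 fold change was -4.71 (SE 0.463), and -5.31 (SE 0.0712) without both mice numbered 3.

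Exons of the 2 genes share sequence, so reads between them are uncertain. Of all 50-base windows, 674 were common to both, 6.39% of those of Fcgbp and 5.76% of those of 9530053A07Rik, and of 150-base windows 0.536% and 0.482%. For every 100 reads on 9530053A07Rik, Fcgbp had 8.26, 5.54 and 0.573 in OEx mice, against 0.205, 0.200 and 0.338 in Ctrl mice. How far reads of 9530053A07Rik add to Fcgbp was not tested.

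Of the secreted and intracellular helpers, Agr2 was the most abundant. Agr2 (chromosome 12, 35992907 to 36004087), which is required for making gel mucins in the intestine, was at 763, 757 and 731 FPKM in Ctrl mice. OEx mice were at 11.9, 10.1 and 29.5 FPKM, so replicate 3 was again highest, 2.67-fold above the mean of the other OEx mice. The groups were far apart, with a log2 fold change of -5.52 (SE 0.361), and -5.99 (SE 0.0779) without both mice numbered 3. Tff3 (chromosome 17, 31125306 to 31129646), the goblet cell trefoil peptide, was listed at 0 in all OEx mice and at 1.13, 0.313 and 1.74 FPKM in Ctrl mice. It rests on 22 Ctrl reads, 11.0-fold above an OEx floor of 3 reads with the deposited scaling and 6.38-fold per total reads. As for Muc4, these folds are not lower bounds.

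Spdef (chromosome 17, 27714352 to 27728955) was the transcription factor of the set. It was at 9.22, 9.45 and 11.6 FPKM in OEx and 63.9, 63.8 and 53.4 FPKM in Ctrl mice. Its OEx mice were closer to each other than those of 9530053A07Rik, Fcgbp or Agr2, and its log2 fold change of -2.47 (SE 0.121) was -2.65 (SE 0.0433) without both mice numbered 3. Spdef stayed at 15.3%, 15.7% and 19.2% of the Ctrl mean in the 3 OEx mice, where Agr2 was at 1.59%, 1.35% and 3.93%. The FPKM of Agr2 was 1.29, 1.07 and 2.54 times that of Spdef in OEx mice and 11.9, 11.9 and 13.7 times in Ctrl mice. The order of levels among members thus differed between mice. 9530053A07Rik led, before Agr2, in all Ctrl mice and OEx replicate 3, whereas Agr2 and then Spdef led in OEx replicates 1 and 2.

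**Figure D2:**
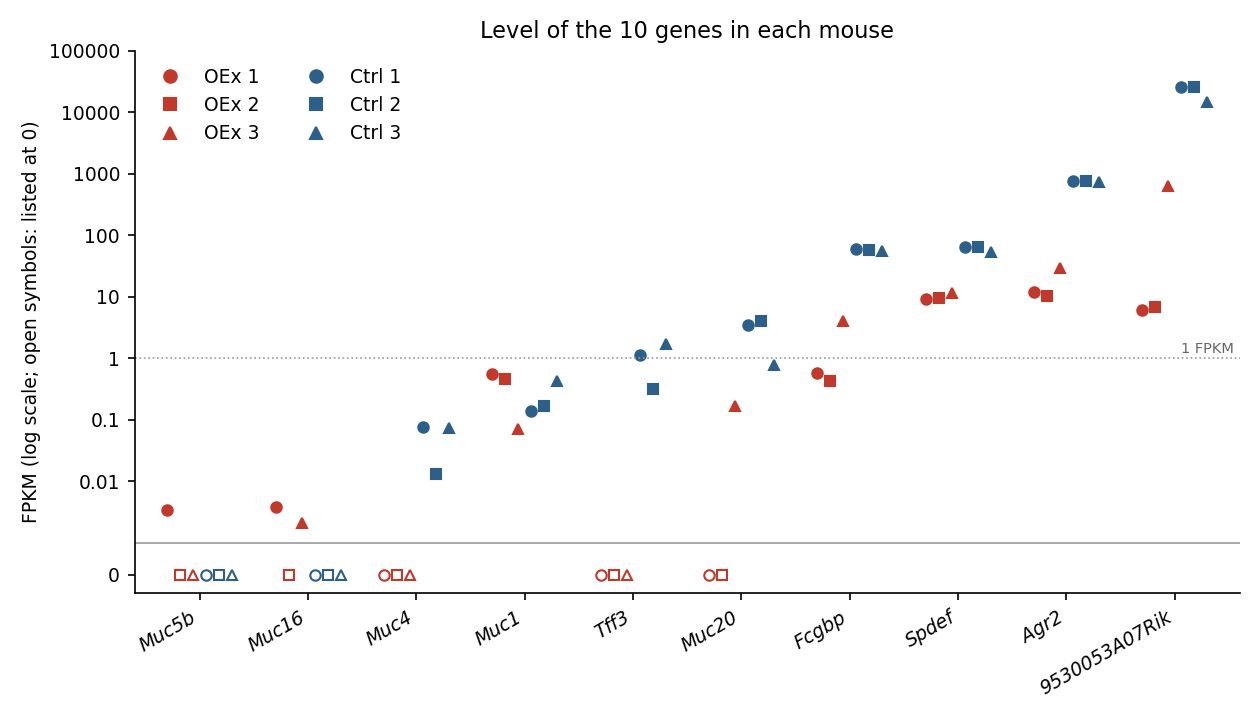
Points show the FPKM (y axis, log scale) of each of the 10 genes in each mouse, OEx in red and Ctrl in blue, with a symbol for each replicate number and open symbols for genes listed at 0. The 4 genes on the right have every Ctrl mouse above every OEx mouse, while the mice of both groups are mixed for Muc1.

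All 5 members that passed the filter on low values (9530053A07Rik, Agr2, Fcgbp, Spdef and Muc20) met the criteria of a limma FDR below 0.05 and more than 2-fold change on the lower side, which 15.5% of all tested genes also met. The other 5 had means under 1 FPKM. OEx mice lay below Ctrl mice without overlap for those 5, against 38.9% of all tested genes. Muc4 and Tff3, which were not tested, were also listed lower in every OEx mouse. Ctrl replicate 2 had only 2 reads for each, under the 3 reads that a count of 0 allows, so their separation is not established. No member had all OEx mice above all Ctrl mice, which held for 33.6% of tested genes (72.5% in either direction). The genes had been picked on this contrast, so nothing is read from these counts.

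The depth of the difference in each OEx mouse can be set beside secretory genes of AP that are no members. OEx replicates 1, 2 and 3 were at 0.0278%, 0.0307% and 2.84% of the Ctrl mean for 9530053A07Rik and at 0.986%, 0.730% and 7.0% for Fcgbp. Tgm4, the prostate transglutaminase of the copulatory plug, was at 1.29%, 1.31% and 6.33%, and Pbsn, whose promoter drives the Cre, at 13.2%, 11.5% and 28.8%. These 4 genes, Agr2 and Spdef all had their highest OEx value in replicate 3. That OEx mouse had the smallest share of summed stroma and immune marker reads, though not of every stroma marker. Its Myh11 was the highest of the OEx mice, at 52.0 FPKM. The part of tissue makeup in these values was not tested.

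**Figure D3:**
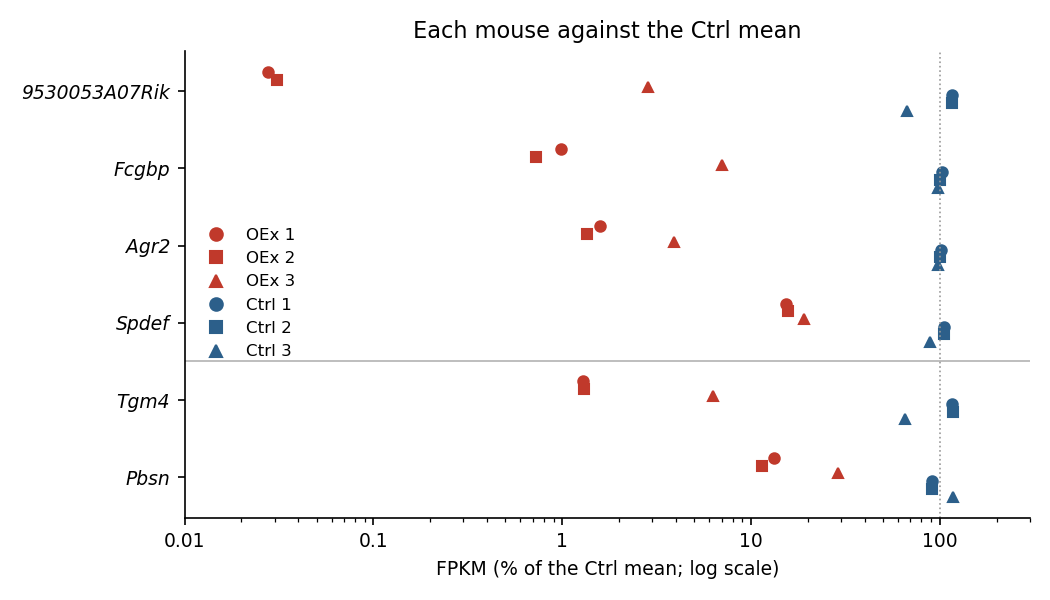
Points show the FPKM of each mouse as a percentage of the Ctrl mean (x axis, log scale) for 4 members above the line and 2 AP secretory genes below it. OEx replicate 3 (red triangle) is the rightmost OEx mouse for each of the 6 genes, most visibly for 9530053A07Rik at 2.84% against 0.0278% and 0.0307%.

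Scaling between mice moved the values of the 5 members that passed the filter without turning any sign. The deposited values carried a scaling that put the median log2 fold change of all tested genes at -0.07. With equal totals that median was 0.69, and the log2 fold changes were -8.49 for 9530053A07Rik, -4.65 for Agr2, -4.04 for Fcgbp, -1.61 for Spdef and -1.40 for Muc20. With limma-voom on recovered reads, where the median was 0.83, they were -8.69 for 9530053A07Rik, -5.13 for Fcgbp, -4.85 for Agr2 and -1.80 for Spdef. Muc20 was at -6.19 in that fit, with a wide SE of 2.03.

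Markers of other cell types also differed between the groups. Of 6 goblet cell markers that are no members, Zg16 and Retnlb were at 0 in every mouse, and Muc2, Spink4 and Atoh1 were at no more than 0.335 FPKM in any mouse and overlapped between groups. The summed level of the 6, 0.0293 to 0.201 FPKM in OEx and 1.6 to 2.6 FPKM in Ctrl mice, was mostly Clca1, the only one of them lower in OEx mice without overlap (0.0133, 0.0232 and 0.147 FPKM against 2.26, 1.98 and 1.55 FPKM). All 4 basal cell markers were lower in OEx mice without overlap, with a summed level of 6.79 to 15.9 FPKM against 212 to 249 FPKM. Of 5 AP secretory markers, 4 were lower without overlap, with sums of 2257 to 5358 FPKM against 23153 to 23589 FPKM. The part of these cell types in the members' values was not tested.

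The rows whose profile over the 6 mice lay closest to a member were sought among 4514 genes whose mean reached 10 FPKM, by the Euclidean distance of centred log2(FPKM + 1) values. For Spdef these were Macrod1, a mono-ADP-ribosyl hydrolase (distance 0.0971), Degs2, a sphingolipid hydroxylase (0.146), and Slc38a10, an amino acid transporter (0.156). For Fcgbp they were the basal keratin Krt15 (0.510), Derl3 of endoplasmic reticulum associated degradation (0.576) and the protease inhibitor Spink1 (0.634). For 9530053A07Rik the nearest rows were at larger distances, C1rb (2.41), Ren1 (2.45) and 9530003J23Rik (2.82). This distance grows with the size of the change, which was largest for this member. Their profiles were still alike in shape, with a Pearson r of 0.996, 0.993 and 0.976, against 0.996 to 0.999 for the rows nearest Fcgbp. Ren1 was at 11079, 11093 and 6630 FPKM in Ctrl mice and at 0.0908, 0.0528 and 47.0 FPKM in OEx mice, so replicate 3 was the highest OEx and the lowest Ctrl mouse for both genes. This likeness is a description over 6 mice that share their libraries.

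Genes around the members in mucus biology were tested with limma over all 12553 rows, and were called at an FDR below 0.05 (Benjamini-Hochberg) where the change also exceeded 2-fold. Of 130 genes in 7 lists, 129 were in the tables, 17 were listed at 0 in every mouse and 60 were tested. Of these, 10 rose and 12 fell in OEx mice, with a median log2 fold change of -0.10, beside 12.8% of all tested genes that rose, 15.5% that fell and a median of -0.07. The call held in each alternative in which the gene was tested for 17 of the 22 and was lost in at least 1 for Galnt15, Creb3l1, Creb3l4, Pigr and Met. With equal totals 28 of 63 tested list genes were called higher and 8 lower. Of all 12825 genes tested under that scaling, 4595 were called higher and 429 lower, with a median of 0.69. The counts per list with equal totals are to be read beside these. Sizes moved with the scaling, and with equal totals Vamp8 was at -1.03, Galnt10 at -1.31, Rab3d at -1.65, Cadps2 at 1.95, Klf5 at 2.04, Galnt18 at 2.08 and Scnn1a at 2.19, while Egfr was at 2.61 and Slc12a2 at 2.63 with voom.

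Of 12 tested regulators of secretory cells, 4 were called lower and 1 higher, with a median of -0.51, and with equal totals 2 were called lower and 4 higher. Elf5, an ETS factor of secretory epithelia, was at 0.179, 0.208 and 0.387 FPKM in OEx and 8.39, 7.94 and 14.3 FPKM in Ctrl mice. It fell by 3.11 on the log2 scale (SE 0.219, limma FDR 6.18e-05), and by 4.84 with a pseudocount of 0.1. Bhlha15 (Mist1), which builds the secretory apparatus of exocrine cells, was at 10.5, 11.3 and 9.86 FPKM against 94.3, 94.5 and 85.6 FPKM. It fell by 3.0 (SE 0.0873, limma FDR 1.44e-05). Creb3l1 and Creb3l4, membrane-bound factors of the secretory pathway, had log2 fold changes of -1.26 (limma FDR 0.0150) and -1.20 (limma FDR 9.80e-04), and neither was called with equal totals, where they were -0.65 and -0.60, nor with voom. Creb3l1 also lost its call without OEx replicate 3 (-0.95) and without Ctrl replicate 1 (limma FDR 0.0502). Klf5 rose by 1.3 (SE 0.0830, limma FDR 4.67e-05), at 9.34 to 9.74 FPKM in OEx against 3.11 to 3.55 FPKM in Ctrl mice. Xbp1, the unfolded protein response factor of secretory cells, changed less than the fold criterion, at -0.41, and its sign turned with equal totals and with voom.

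Granule release genes gave 2 lower and 1 higher call among 12, with a median of -0.35 (2 lower and 4 higher with equal totals). Rab3d, a small GTPase of secretory granules, was at 14.6, 16.2 and 17.7 FPKM in OEx and 108, 107 and 80.6 FPKM in Ctrl mice, and fell by 2.52 (SE 0.139, limma FDR 3.38e-05). Vamp8, the granule SNARE of exocrine and goblet cells, fell by 1.91 (SE 0.157, limma FDR 1.02e-04), from 111 to 162 FPKM in Ctrl to 30.6 to 35 FPKM in OEx mice. Cadps2, a priming factor of dense core vesicles, rose by 1.20 (SE 0.0909, limma FDR 7.94e-05). The SNARE partners Stxbp2 and Vamp2 did not meet the fold criterion, at -0.48 each, and turned sign with equal totals.

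Mucin-type O-glycosylation, which decorates the mucin backbone, was near the median of all genes at -0.20, with 1 of 13 tested genes called higher and 2 lower (6 and 1 with equal totals). Of the enzymes that start O-glycans, Galnt18 rose by 1.20 (SE 0.0940, limma FDR 8.80e-05) and Galnt10 fell by 2.13 (SE 0.11, limma FDR 2.96e-05). Galnt18 was at 77.6, 81.0 and 67.0 FPKM in OEx and 31.7 to 32.5 FPKM in Ctrl mice, and Galnt10 at 5.12, 5.41 and 5.10 FPKM against 28.1, 28.4 and 22.5 FPKM. Members of this enzyme family thus lay on both sides, also with equal totals. Galnt15 had a log2 fold change of -1.03 (limma FDR 0.00345) and was not called with equal totals (-0.45), with voom (limma FDR 0.0567) or without Ctrl replicate 3 (-0.82). Fut2, the fucosyltransferase of secreted blood group antigens, was at 11.0, 11.2 and 18.7 FPKM in OEx and 29.0, 29.1 and 7.33 FPKM in Ctrl mice, with Ctrl replicate 3 the lowest of all. It was not called (-0.46, limma FDR 0.456), was above 0 with equal totals (0.37) and was called lower without Ctrl replicate 3 (-1.08).

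Ion transport genes of mucous surfaces, which set the hydration and pH in which mucins unfold, had 4 of 8 tested genes called higher, 1 lower and a median of 0.88 (5 of 9 higher and 1 lower with equal totals). Ano1, a calcium-activated chloride channel, was at 74.3, 75.3 and 83.6 FPKM in OEx and 13.9, 14.6 and 16.4 FPKM in Ctrl mice, and rose by 2.30 (SE 0.0944, limma FDR 2.04e-05). Cftr, the chloride and bicarbonate channel, was at 1.36, 1.62 and 4.02 FPKM in OEx mice and at no more than 0.00995 FPKM in Ctrl mice, and rose by 1.65 (SE 0.289, limma FDR 0.00237), in a region where an antisense gene, Gm15592, is annotated. With 210, 288 and 563 reads against 0, 1 and 0, its fitted value depends on the offset added, and was 4.40 with a pseudocount of 0.1 and 9.01 with voom. Slc12a2, the cotransporter that loads secretory cells with chloride, rose by 1.74 (SE 0.138, limma FDR 8.95e-05), and the sodium channel subunit Scnn1a by 1.41 (SE 0.104, limma FDR 7.14e-05). Car2, carbonic anhydrase 2, moved the other way, from 145, 147 and 98.7 FPKM in Ctrl to 4.51, 4.84 and 8.33 FPKM in OEx mice. It fell by 4.27 (SE 0.248, limma FDR 3.83e-05). Slc26a3, at -0.46, was not called and turned sign with equal totals, and Scnn1b, at -0.76, was called only with a pseudocount of 0.1 (-1.32) or without both mice numbered 3.

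Few other mucins or secreted mucus proteins were expressed. Only 3 of 15 other mucin genes were tested, and of these only Emcn, the sialomucin of endothelium, was called. It was at 0.639 to 0.890 FPKM in OEx and 5.72 to 6.44 FPKM in Ctrl mice and fell by 2.03 (SE 0.105, limma FDR 3.03e-05), and the 3 endothelial markers Pecam1, Cdh5 and Kdr were also lower in OEx mice without overlap, with a summed level of 4.99 to 6.05 against 10.8 to 14.6 FPKM under the deposited scaling. As a share of recovered reads the 3 markers overlapped between groups, at 0.00361% to 0.00476% in OEx and 0.00447% to 0.00691% in Ctrl mice. The part of endothelium in this value was not tested. Of 20 secreted mucus-associated proteins 3 were tested. Tff2, the trefoil peptide of gastric mucus, was at 4.29, 3.67 and 2.85 FPKM in OEx mice and listed at 0 in Ctrl mice (limma FDR 5.44e-05), the opposite side to Tff3. Itln1, an intelectin that binds microbial glycans, was listed at 0 in OEx mice and was at 8.97, 8.60 and 3.69 FPKM in Ctrl mice (limma FDR 2.01e-04). Lyz2, the lysozyme of macrophages, was at 171, 155 and 7.79 FPKM in OEx and 22.1, 23.8 and 54.7 FPKM in Ctrl mice, and was not called (0.97, limma FDR 0.481). Without OEx replicate 3, in which immune markers were also low, it was called higher at 2.37.

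Known binding partners of the members gave 2 higher and 1 lower call among 9, with a median of 0.54 (6 higher and 0 lower with equal totals). Egfr, a partner of membrane mucins, was at 7.21, 6.75 and 8.52 FPKM in OEx and 2.18, 1.98 and 2.15 FPKM in Ctrl mice, and rose by 1.45 (SE 0.107, limma FDR 7.16e-05). Met, the receptor that Muc20 binds, fell by 1.32 (SE 0.117, limma FDR 1.29e-04), at 1.70 to 1.87 FPKM in OEx and 5.04 to 6.61 FPKM in Ctrl mice, and missed the fold criterion with equal totals (-0.64) and with voom (-0.95). Erbb2, the partner of Muc4, was not called, at 0.54 (limma FDR 0.00878), and was called higher with equal totals and with voom. It shares only 9 exon bases with the gene Mien1. Pigr, which carries IgA into mucus, had a log2 fold change of 1.12 (SE 0.391, limma FDR 0.0396), and missed the criteria without OEx replicate 1 (limma FDR 0.105), without OEx replicate 2 (limma FDR 0.101) and without Ctrl replicate 3 (0.66).

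**Figure D4:**
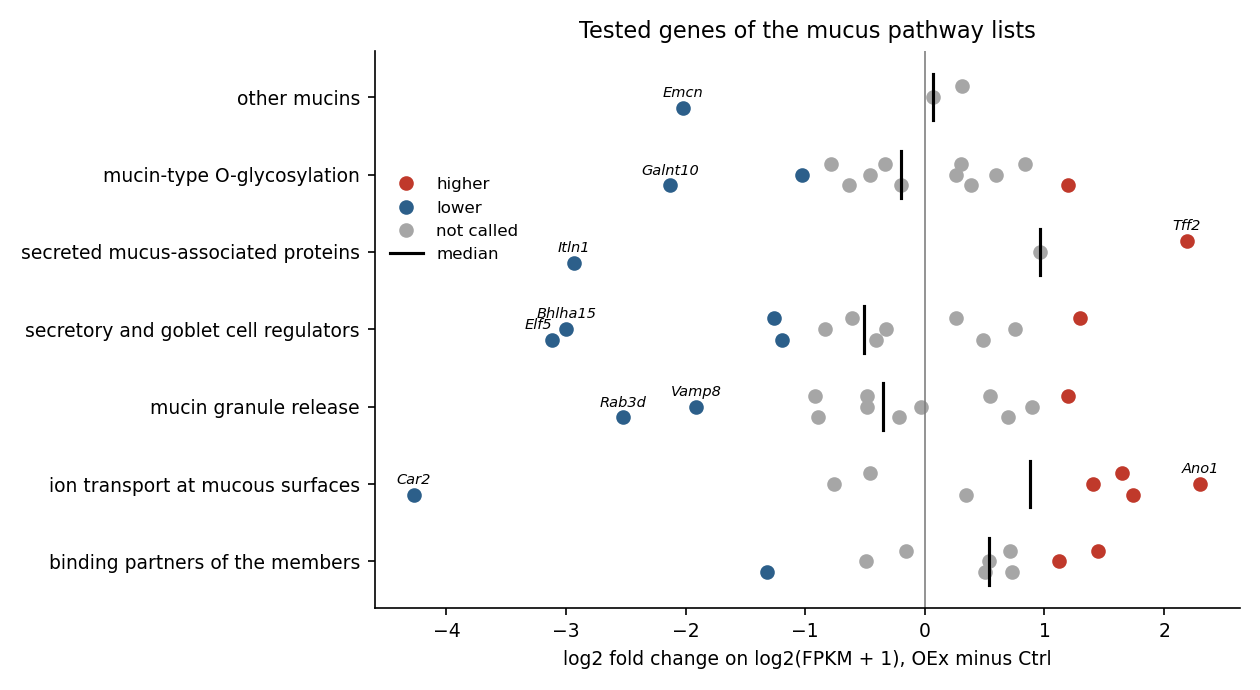
Points show the log2 fold change (x axis, OEx minus Ctrl, on log2(FPKM + 1)) of each of the 60 tested list genes, 1 line per list, in red where called higher, blue where called lower and grey where not called, with a black bar at the list's median. Ion transport genes have 4 of 8 points in red and Car2 at -4.27, and the regulators have Elf5 and Bhlha15 far to the left. With equal totals 28 list genes were called higher and 8 lower, beside 4595 and 429 of all 12825 genes tested under that scaling.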

How the data were processed

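Whole AP of 3 OEx and 3 Ctrl mice, grouped by genotype label, was analysed. FPKM values were deposited by the authors, in a separate table for each mouse. The submitters' processing notes name CASAVA, HISAT2 2.0.5, StringTie 1.3.3b and featureCounts 1.5.0-p3, and the genome build is not given in the sources used here. Rows without a gene name (544 of 55076, with 0.632% to 1.21% of FPKM) were left out. Whole reads were recovered from the FPKM steps and GENCODE M21 exon lengths (GRCm38, 53636 rows placed), with 96.9% to 97.5% of the values of lower genes within 0.05 of a whole number. Intervals and floors (3 reads) cover counting error only.

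Groups were compared with limma 3.58.1 (R 4.3.3) on log2(FPKM + 1) over rows whose mean reached 1 FPKM, with an intensity trend. Calls needed an FDR (Benjamini-Hochberg) below 0.05 and more than 2-fold change. The labels do not say how samples of a group relate, and p-values measure the spread between them. Replicates 1 and 2 differed by 2.48 (OEx) and 2.22 (Ctrl) times counting noise in variance, other pairs by 19.0 to 24.0 times, and all counted as separate mice.

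Members, lists, tests and alternatives were chosen with earlier results of these data known. From each list the text could name up to 4 called genes per direction without overlap and the 2 most abundant genes not called, and any other gene was named after its values were seen. Alternatives changed the pseudocount (0.1), filter, scaling, trend, fold criterion or unit (limma-voom on genes with a mean of at least 10 recovered reads), added a replicate block, or left out each mouse. Averaging replicates 1 and 2 and leaving out both mice numbered 3 were added after the data were seen. Steps were tested on simulated data. Biopython 1.88, scipy 1.17.1 and matplotlib 3.10.9 were used in Python 3.11.15.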

Additional observations from a re-analysis of the deposited data

How the results depend on the processing

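Among the 5 members with a mean of at least 1 FPKM, the log2 fold change was below 0 in every alternative in which the gene was tested. It ran from -11.75 to -8.16 for 9530053A07Rik, -5.99 to -4.65 for Agr2, -5.68 to -4.04 for Fcgbp, -6.19 to -1.40 for Muc20 and -2.65 to -1.61 for Spdef. With at least 1 FPKM in every mouse, 3 members were tested and met the criteria, in place of 5, because Fcgbp and Muc20 fell under that filter. Leaving out single mice gave 4 to 5, since Muc20 was not tested without Ctrl replicate 1 or 2, and with replicates 1 and 2 averaged 4 members met the criteria, without Muc20. Muc20 passed the mean filter only through its Ctrl values. The members had been picked on this contrast, so nothing is read from these signs and counts.

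Over all tested genes, 1604 were called higher and 1941 lower. With equal totals the counts were 4595 and 429, with the 20 most abundant genes left out of the totals 3540 and 638, with upper-quartile scaling 2350 and 1222, and with limma-voom on recovered reads 6443 and 794. A filter of 1 FPKM in every mouse left 865 higher and 1595 lower, and without the fold criterion 3875 were higher and 4584 lower. Leaving out single mice gave 1536 to 1694 higher and 1913 to 1957 lower.

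Of the list genes, 10 were called higher and 12 lower. The higher count was 28 with equal totals, 23 without the 20 most abundant genes, 36 with voom and 22 without the fold criterion. The lower count was 7 with 1 FPKM in every mouse, where fewer genes were tested, and 23 without the fold criterion. Single mice left out gave 9 to 12 higher and 11 to 13 lower, and leaving out both mice numbered 3 gave 10 and 16.

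The labels give both groups replicate numbers from 1 to 3. Deviations of same-numbered mice correlated at -0.201, -0.192 and -0.314, so the numbers were not taken to pair mice. With the replicate block, 1565 genes were called higher and 1906 lower, 10 list genes higher and 12 lower, and 5 members met the criteria. At these depths Muc5b and Muc16 could not be compared.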

Other observations

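Several low genes of the mucus lists had a mean under 1 FPKM and were not tested. They are named here after their values were seen, and their values are given without a test. Ovgp1, the oviduct glycoprotein that is a mucin by nomenclature, was at 1.62, 1.41 and 1.71 FPKM in OEx mice (110 to 115 reads) and 0.135, 0.174 and 0.129 FPKM in Ctrl mice (6 to 8 reads). It shares 1023 exon bases with another annotated gene. Muc19, a gel-forming mucin of salivary glands, was at 0.242, 0.207 and 0.335 FPKM in OEx and 0.0439, 0.0679 and 0.0650 FPKM in Ctrl mice. For both, OEx mice lay above Ctrl mice, on the other side from Muc4, Muc20 and Tff3.

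Gcnt4, a branching enzyme of O-glycans, had counts of 104, 109 and 141 in OEx mice, against 2, 0 and 0 in Ctrl mice. Gcnt4 shares 535 exon bases with another annotated gene. Its relative Gcnt1 was at 0.594, 0.746 and 0.666 FPKM in OEx and 0.172, 0.0693 and 0.0709 FPKM in Ctrl mice. Clca1, a metalloprotease of goblet cell mucus, had counts of 1, 2 and 10 in OEx mice, against 107, 97 and 89 in Ctrl mice, again with the highest OEx value in replicate 3. Slc4a4, a sodium bicarbonate cotransporter, had 278 to 580 reads in each OEx mouse, against 15 to 23 in Ctrl mice.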
